A study of Mus musculus with 8 samples.

Results

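The 2′-5′ oligoadenylate synthetase (OAS) family was described here by 8 genes, Oas3, Oasl1, Oasl2, Oas2, Oas1a, Oas1b, Oas1c and Oas1g, out of the 49997 genes of a table of raw counts. Members were chosen by symbol, and all 8 were found in the table. The cells were EO771, a mouse mammary carcinoma line, in 4 groups of 2 libraries each. EO771 cells were exposed to 100 nM 12-HETE, a lipid made from arachidonic acid by the enzyme ALOX12, for 48 h or to vehicle, which was 2% DMSO in saline. Other EO771 cells were transduced with a vector that overexpresses the p150 isoform of ADAR1, an enzyme that converts adenosine to inosine in double-stranded RNA, or with the empty vector. The sources used here do not say whether a transduced line was a single clone or a pool. For its editing analysis of the same groups the study counts independent experiments, but no label ties a library to one, so the p-values measure the spread between these libraries.

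OAS enzymes are sensors of double-stranded RNA in the cytoplasm. On binding it they join ATP into short chains with 2′-5′ bonds, and these chains serve as a second messenger of antiviral defence. OAS genes belong to the interferon-stimulated genes: type I interferon activates the complex ISGF3, which includes STAT2 and IRF9 and binds the interferon-stimulated response element (ISRE) in their promoters. The OAS-like genes Oasl1 and Oasl2 carry ubiquitin-like domains in addition to the OAS unit.

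The libraries were shallow, with totals from 1101767 to 1537037 counts, and a single gene, AY036118, held 44.4% to 50.3% of them. Levels are therefore given as counts and as normalized CPM, which is the count divided by the library total and its TMM factor and scaled to CPM. A level of 3 counts, the most that a count of 0 allows, corresponded to 2.05 to 2.65 normalized CPM in a single library. This floor and the count intervals below cover counting error only. The transduced gene matched its label: Adar had 181 and 140 counts in the ADAR1 p150 OE libraries against 2 and 8 in the vector libraries, and 5, 5, 7 and 6 in the vehicle and 12-HETE libraries. Keratin genes of an epithelial tumour were counted in every library (Krt8 from 51 to 145 and Krt18 from 42 to 150 counts), whereas the epithelial markers Cdh1 and Epcam had 0 and at most 4 counts.

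All 8 genes lie on mouse chromosome 5 (GRCm38, GENCODE M21 annotation). Oasl2 (114896936 to 114912234) and Oasl1 (114923240 to 114937915), both on the plus strand, form one pair. The other members lie 5.79 Mb away in a cluster of 191.3 kb that holds 10 OAS genes, 6 on the minus and 4 on the plus strand. Oas2 (120730333 to 120749853) and Oas3 (120753098 to 120777661) stand at one end of it on the minus strand, and Oas1a (120896256 to 120907521, minus strand) lies near the other end. Between them lie Oas1c (120800194 to 120812514, minus strand), Oas1b (120812635 to 120824163, plus strand) and Oas1g (120876142 to 120887613, minus strand). The starts of Oas1c and Oas1b are 121 bases apart and face away from each other. Oas1b, known as a flavivirus resistance gene, is annotated as a polymorphic pseudogene, and the other 7 members as protein coding.

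The promoter stretches below are shown because they hold the core of the ISRE, the element through which ISGF3 acts. The core was searched as GAAA, any 2 bases and GAAA on both strands of the 250 bases before each RefSeq start site (GRCm38.p6), where 6 of the 8 members had an entry. Capitals mark the core. It reads GAAA on the strand of the gene for Oas3, Oas1a and Oas1g, and TTTC, its reverse complement, for Oas1c. Where 2 cores overlap they share the middle 4 letters.
Oas3 (chr5:120777715-120777744, minus strand): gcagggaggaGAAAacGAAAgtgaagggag
Oas1a (chr5:120907526-120907555, minus strand): cccttctcggGAAAtgGAAActGAAAatct
Oas1g (chr5:120887614-120887643, minus strand): tgcccttctcggGAAAtgGAAActGAAAat
Oas1c (chr5:120812606-120812635, minus strand): atgggacTTTCagTTTCcaTTTCccgggaa

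The core began 75 bases before the start of Oas3 and 20 and 18 bases before those of Oas1a and Oas1g. In Oas1c it began 114 bases before the start, in the stretch that Oas1c shares with the start of Oas1b. It was found in 978 of 32851 promoters of the same length (2.98%), and these letters were not in the windows of Oasl1 and Oasl2. With a spacing of 3 bases in place of 2, the pattern was in none of the 6 windows and in 2.38% of all promoters. Such matches are a description of the letters, not of binding.

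The members differed in how well they were measured. Oas3, Oasl1 and Oasl2 had a mean of at least 10 counts over the 8 libraries and entered the main test. Oas1a, Oas2 and Oas1c had means of 8.38, 5 and 4.5 counts and are given by their counts and by a fit with no count minimum. Oas1b and Oas1g had at most 3 counts in every library and were not measured at this depth. The 3 genes above the minimum owed their mean mainly to the control libraries, so how many of them moved is not evidence about the family. In these bulk libraries fewer cells that express a gene and less RNA of it per cell cannot be told apart.

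**Figure D1:**
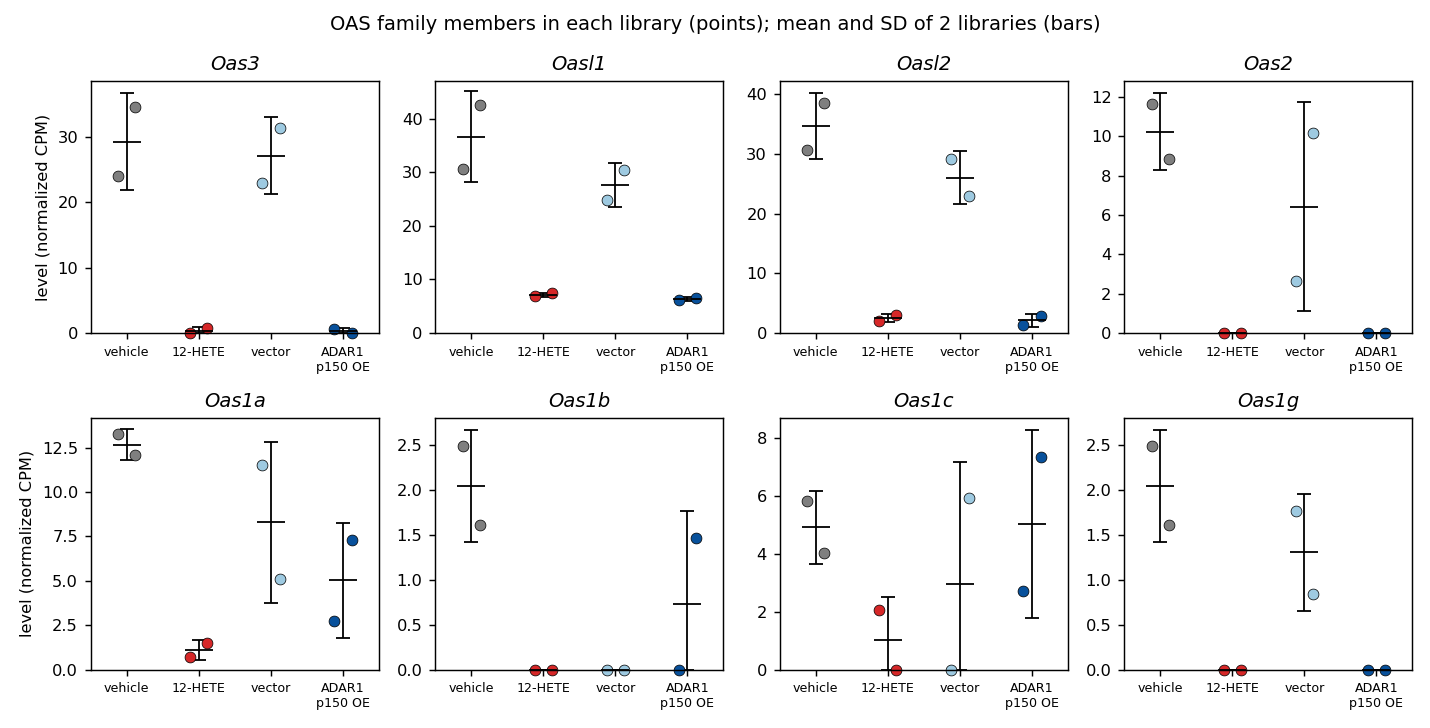
Level of each OAS family member (y axis, normalized CPM from 0, a scale of its own in each panel) in the 4 groups. Points are libraries and bars the mean and SD of 2 libraries. Both control groups sit above both treated groups for Oas3, Oasl1, Oasl2 and Oas2, while Oas1a and Oas1c of ADAR1 p150 OE overlap with vector.

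Oas3, whose protein holds 3 OAS units and responds to long double-stranded RNA, showed the largest fall among the tested members under both treatments. It had 29 and 43 counts in vehicle libraries and 0 and 1 after 12-HETE. It had 26 and 37 counts in vector libraries and 1 and 0 under ADAR1 p150 OE. Each treated library thus held at most 1 read of a gene that every control library counted at least 26 times. Relative to library size, Oas3 was 82.1 times higher in vehicle than in 12-HETE (95% exact interval 14.3 to 3289, from summed counts) and 77.2 times higher in vector than in ADAR1 p150 OE (13.4 to 3097). The fitted log2 fold change was -6.02 (SE 0.66, edgeR adjusted p = 5.57e-09) for 12-HETE and -5.93 (SE 0.67, edgeR adjusted p = 1.72e-08) for ADAR1 p150 OE. These SEs come from the F statistic and give a narrower range than the count intervals. They do not show how well the size of the fall is known. The count intervals are wide because each treated group rests on 1 count.

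Oas2, which holds a pair of OAS units and is the neighbour of Oas3, was not counted in any treated library. It had 14 and 11 counts in vehicle libraries, 3 and 12 in vector libraries, and 0 in all 4 treated libraries. The lowest vector library therefore lay at the limit that a count of 0 allows, while the other 3 controls lay above it. Against a floor of 3 counts over the treated group, the ratio of Oas2 was 9.51 for vehicle over 12-HETE and 6.13 for vector over ADAR1 p150 OE. These ratios take the control counts as exact, so they are no strict lower bounds. In the fit with no count minimum it was called lower under 12-HETE (edgeR adjusted p = 1.15e-07) and under ADAR1 p150 OE (edgeR adjusted p = 4.63e-05).

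Oas1a, one of the mouse Oas1 genes with synthetase activity, fell after 12-HETE but its groups overlapped under ADAR1 p150 OE. It had 16 and 15 counts in vehicle libraries against 1 and 2 after 12-HETE, an 11.8 times higher level in vehicle (95% exact interval 3.68 to 60.3). It had 13 and 6 counts in vector libraries against 4 and 10 under ADAR1 p150 OE, a ratio of 1.66 whose interval of 0.79 to 3.58 includes 1. In the fit with no count minimum the log2 fold change of Oas1a was -3.49 (SE 0.65, edgeR adjusted p = 5.08e-06) for 12-HETE and -0.83 (SE 0.53, edgeR adjusted p = 0.528) for ADAR1 p150 OE. The difference between these effects was -2.67 on the log2 scale (95% interval -4.45 to -0.89), with an unadjusted p of 0.0033 by edgeR that did not pass adjustment over all genes (edgeR adjusted p = 0.0817). Oas1a is thus not shown to respond differently to the treatments.

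Oas1c, an Oas1 paralog, had 7 and 5 counts in vehicle libraries and 3 and 0 after 12-HETE, and 0 and 7 in vector libraries against 4 and 10 under ADAR1 p150 OE. The vehicle and 12-HETE libraries did not overlap, whereas 1 vector library had none and the other had as many counts as the higher vehicle library. Vehicle was 4.56 times higher than 12-HETE (95% exact interval 1.23 to 25.2), and ADAR1 p150 OE was 1.63 times higher than vector (0.62 to 4.78). Neither change of Oas1c passed the test with no count minimum (edgeR adjusted p = 0.085 and 0.84), nor did the difference between them (-2.74 on the log2 scale, edgeR adjusted p = 0.167).

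Oas1b had 3 and 2 counts in vehicle libraries, 2 in 1 ADAR1 p150 OE library and 0 in the other 5. Oas1g, the second of the active Oas1 enzymes here, had 3 and 2 counts in vehicle libraries, 2 and 1 in vector libraries and 0 in all 4 treated libraries. For both, the ratio of vehicle to 12-HETE against the floor was 1.9, which takes the vehicle counts as exact and is no strict lower bound. With ADAR1 p150 OE and vector both at or under the floor no ratio was formed. Neither gene passed in the fit with no count minimum (edgeR adjusted p = 0.257 and 0.782 for Oas1b, 0.23 and 0.445 for Oas1g).

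Reads of Oas1a and Oas1g cannot be fully told apart. Their coding sequences were 96.7% identical, and 40.9% of the 100-base stretches in Oas1a transcripts and 31.2% of those in Oas1g were also found in another OAS gene. How reads that match several genes were counted is not given in the sources used here, so both values are uncertain. Oas3, Oas2, Oasl1 and Oasl2 shared no 50-base stretch with any other OAS gene. For Oas1c the share was 9.82% at 50 bases and 0% at 100 bases.

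Oasl2, an OAS-like gene, fell under both treatments. It had 37 and 48 counts in vehicle libraries and 3 and 4 after 12-HETE. It had 33 and 27 counts in vector libraries and 2 and 4 under ADAR1 p150 OE. The lowest control library held 27 counts and the highest treated library 4. The log2 fold change of Oasl2 was -3.74 (SE 0.43, edgeR adjusted p = 1.59e-08) for 12-HETE and -3.56 (SE 0.47, edgeR adjusted p = 3.66e-07) for ADAR1 p150 OE, and its summed counts gave ratios of 13.9 (95% exact interval 6.44 to 35.5) and 12.3 (5.31 to 34.7).

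Oasl1, whose protein lacks synthetase activity and is known to bind the Irf7 transcript and hold back its translation, fell less and kept a measurable level. It had 37 and 53 counts in vehicle libraries and 10 in each 12-HETE library. It had 28 and 36 counts in vector libraries and 9 in each ADAR1 p150 OE library. The groups did not overlap, and the treated libraries were within 1 count of each other. The log2 fold change of Oasl1 was -2.34 (SE 0.34, edgeR adjusted p = 1.45e-06) for 12-HETE and -2.11 (SE 0.37, edgeR adjusted p = 3.49e-05) for ADAR1 p150 OE. Its ratio of controls to treated libraries was 5.13 (95% exact interval 3.14 to 8.80) and 4.36 (2.55 to 7.81).

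**Figure D2:**
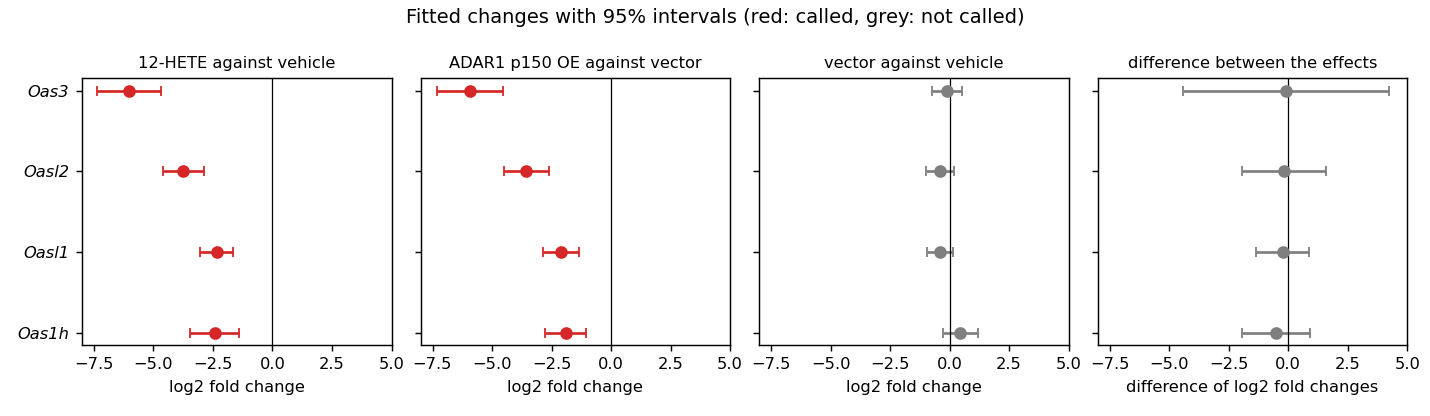
Fitted log2 fold changes (x axis) of the tested members Oas3, Oasl2 and Oasl1 and of the paralog Oas1h in each comparison, with 95% intervals from the F statistic. Those of Oas3 under the treatments are narrower than its count intervals. Under both treatments all 4 points lie below 0. The intervals include 0 for vector against vehicle and for the difference between the effects, where that of Oas3 runs from -4.44 to 4.25.

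In the main test, 3 of the 3 members that could be tested were called lower after 12-HETE (adjusted p under 0.05 and a 2-fold change), where 8.25% of the 6901 genes tested were called lower. The same 3 members were called lower under ADAR1 p150 OE, where 4.69% of all genes tested were. With no count minimum, 5 of 8 members were called lower after 12-HETE against a background of 3.52% of 24375 genes, and 4 of 8 under ADAR1 p150 OE against 1.94%. Oas3, Oasl1, Oasl2 and Oas2 were called in both, and Oas1a after 12-HETE. No member was called higher. The median log2 ratio of the summed counts, with groups at 0 set to the floor, was -2.80 over 8 members after 12-HETE and -2.37 over the 6 members with a ratio for ADAR1 p150 OE. Fitted medians over all genes tested were 0.0044 and 0.066, which is another measure over other genes. In the fit with no count minimum the medians were -4.13 and -2.94 over the 8 members, beside 0 over all 24375 genes. These medians include Oas1b and Oas1g, which were not measured at this depth and had at most 5 counts in a group. Their size is thus uncertain.

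The empty vector and the vehicle control were compared next, since the treatments had separate controls. No member was called (0 of 3), with 0.0435% of all genes tested called in either direction. The log2 fold changes of vector against vehicle were -0.11 for Oas3, -0.41 for Oasl1 and -0.42 for Oasl2, with edgeR adjusted p of 0.925, 0.58 and 0.59. At an unadjusted p under 0.05 the count was also 0, and DESeq2 called 0 members.

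The effects of 12-HETE and of ADAR1 p150 OE were compared by the contrast of the log2 fold changes. No tested member was called (0 of 3), where 8.33% of all genes tested were called. The difference was -0.24 for Oasl1 (95% interval -1.35 to 0.88), -0.18 for Oasl2 (-1.95 to 1.58) and -0.09 for Oas3 (-4.44 to 4.25), all with unadjusted edgeR p above 0.05. DESeq2 called neither Oasl1 nor Oasl2 and gave no adjusted p for Oas3. The interval of Oasl1 still allows a 2-fold difference in one direction, and that of Oas3 leaves the comparison undecided.

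The 8 members were also summed in each library. The sum was 146 and 179 counts in vehicle libraries, 17 and 17 after 12-HETE, 105 and 126 in vector libraries, and 20 and 35 under ADAR1 p150 OE. In normalized CPM the group means were 132.6 ± 16.1, 12.2 ± 0.61, 99.8 ± 9.76 and 19.6 ± 8.49 (SD, n = 2 in each group). The lowest control library was thus at 92.9 and the highest treated library at 25.6. The family was 10.9 times higher in vehicle than in 12-HETE (95% exact interval 7.65 to 16) and 5.15 times higher in vector than in ADAR1 p150 OE (3.82 to 7.04), and vehicle was 1.33 times higher than vector (1.12 to 1.58).

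**Figure D3:**
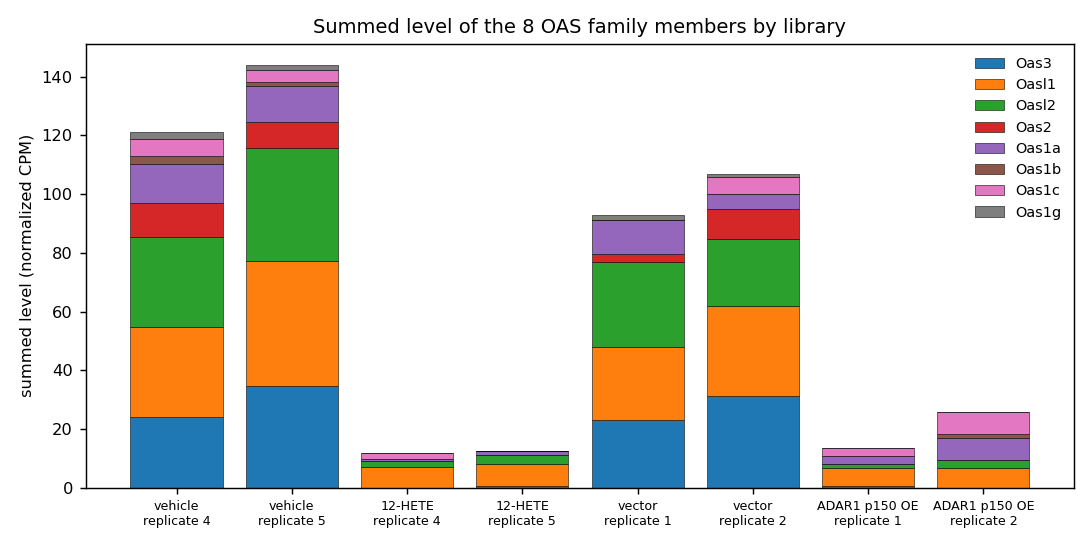
Summed level of the 8 OAS family members (y axis, normalized CPM) in each library, stacked by member. The 4 control libraries reach 92.9 to 144.0 and the 4 treated libraries 11.8 to 25.6, of which Oas1a and Oas1c are a visible share in ADAR1 p150 OE replicate 2.

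The makeup of the sum after 12-HETE differed from that of the control groups. Oasl1 was 27.7% of the family's counts in vehicle libraries (95% exact binomial interval 22.9 to 32.9) and 27.7% in vector libraries (22.0 to 34.0), but 58.8% after 12-HETE (40.7 to 75.4). With ADAR1 p150 OE it was 32.7% (20.7 to 46.7), with 45% in replicate 1 and 25.7% in replicate 2. This interval overlaps those of the other groups. The intervals pool the reads of both libraries of a group and leave out the spread between them. The higher sum of ADAR1 p150 OE replicate 2 came from the Oas1 genes, which had 22 counts there and 8 in replicate 1, while Oas3, Oasl1 and Oasl2 together had 13 and 12.

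Levels of different genes were compared per kb of exon. In vehicle, the level was 14.1 CPM per kb for Oasl1 (11.8 to 16.3 in the libraries), 6.72 for Oas1a (6.4 to 7.04), 5.44 for Oasl2 (4.82 to 6.06) and 4.15 for Oas3 (3.4 to 4.89). Oas2 followed with 2.3, Oas1c with 2.04, Oas1b with 1.03 and Oas1g with 0.876. In this order Oasl2 and Oas3, Oas2 and Oas1c, and Oas1b and Oas1g overlapped between libraries and do not differ beyond their spread. With 12-HETE, Oasl1 led with 2.75 CPM per kb, and Oas1a, Oas1c, Oasl2 and Oas3 had 0.577, 0.431, 0.396 and 0.0525. With ADAR1 p150 OE, Oas1a (2.67), Oasl1 (2.44) and Oas1c (2.09) overlapped at the top and Oas3 was at 0.0482. In both treated groups Oas3 was the lowest of the members with any count.

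**Figure D4:**
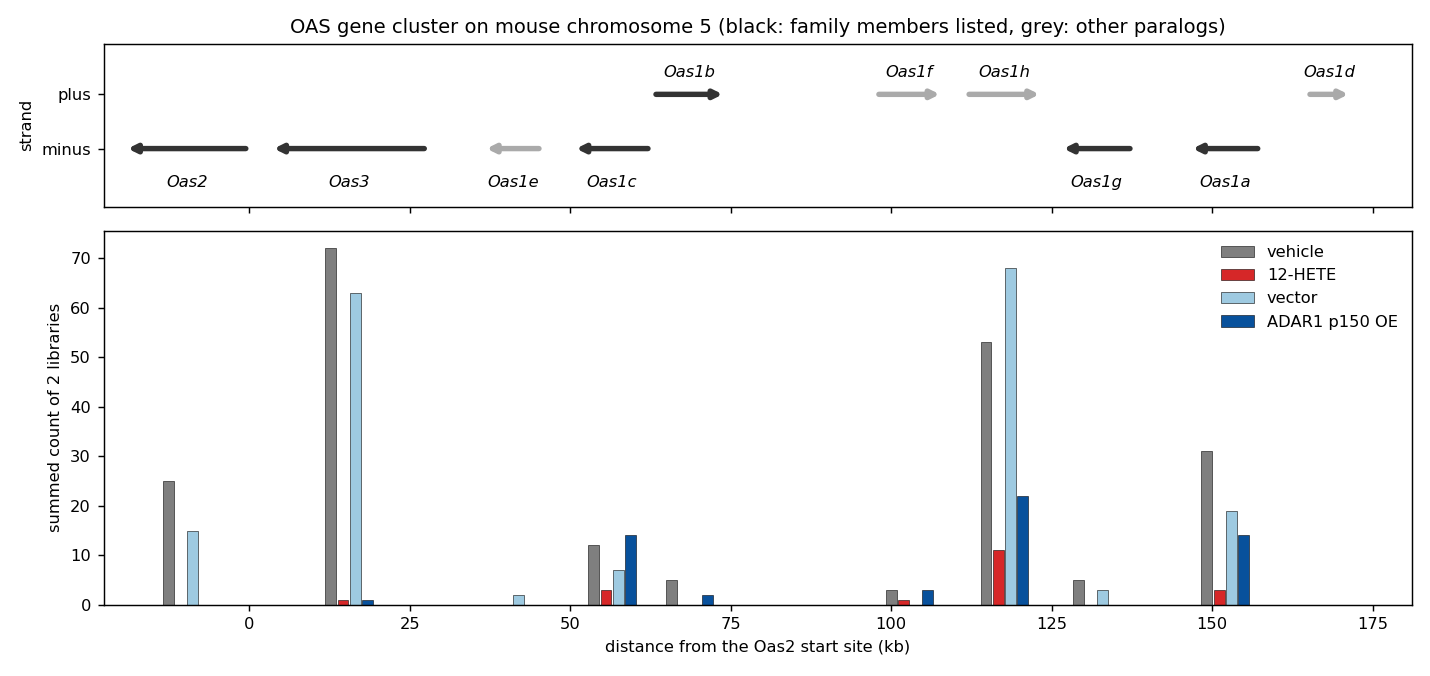
Top, position and strand of the 10 OAS genes of the cluster by distance from the Oas2 start site (x axis, kb); bottom, summed count of the 2 libraries of each group at each gene. Oas3 and Oas2 are at 0 or 1 count in both treated groups, while Oas1h, Oas1a and Oas1c keep counts in ADAR1 p150 OE (22, 14 and 14).

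The cluster holds 4 more Oas1 paralogs. Oas1h was the only one of them with a mean of at least 10 counts, at 25 and 28 counts in vehicle libraries, 11 and 0 after 12-HETE, 28 and 40 in vector libraries, and 13 and 9 under ADAR1 p150 OE. No treated library reached a control library, but the 12-HETE libraries differed widely from each other, and the fitted value was -7.79 without 12-HETE replicate 4 and -1.49 without replicate 5. The log2 fold change of Oas1h was -2.43 (SE 0.51, edgeR adjusted p = 0.00034) and -1.91 (SE 0.42, edgeR adjusted p = 0.0008), and neither passed with DESeq2 (adjusted p = 0.0754 and 0.181). Oas1f had at most 3 counts, Oas1e at most 2, and Oas1d had 0 in every library.

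Few other genes lie within 20 kb of a member. The antisense gene Gm13822 overlaps 38 exon bases of Oasl1 and had 5 and 2 counts in vehicle libraries, 0 after 12-HETE, 5 and 1 in vector libraries, and 0 and 1 under ADAR1 p150 OE. Whether counting used the strand is not given in the sources used here, so its reads and those of Oasl1 may not be separable, but its highest count of 5 is below the 28 counts of the lowest Oasl1 control. Another 3 neighbours in the table had at most 4 counts.

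Of the tested genes listed with the OAS pathway, Pde12 was called higher and Abce1 was not called. Pde12, which degrades the 2′-5′ chains, rose under both treatments, by 1.21 (SE 0.45, edgeR adjusted p = 0.0394) and 1.28 (SE 0.48, edgeR adjusted p = 0.0482) on the log2 scale. Its counts were 8 and 7 in vehicle libraries, 24 and 16 after 12-HETE, 9 and 3 in vector libraries, and 18 and 18 under ADAR1 p150 OE. With no count minimum neither rise of Pde12 passed (edgeR adjusted p = 0.104 and 0.159). Abce1, an ATP-binding protein of ribosome recycling, had log2 fold changes of 0.61 and 0.94 that did not pass (edgeR adjusted p = 0.228 and 0.136).

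Other sensors of nucleic acids were mostly too low to test. Of 16 genes listed for the OAS pathway and nucleic acid sensing, 14 were in the table and 4 were tested, of which 1 rose and 2 fell after 12-HETE and 1 rose and 1 fell under ADAR1 p150 OE. Over all genes tested, 6.12% were called higher and 8.25% lower after 12-HETE, and 8.11% higher and 4.69% lower under ADAR1 p150 OE, which is also the background of the lists that follow. The median log2 fold change of the 4 was -0.48 and -0.03, beside 0.0044 and 0.066 over all genes tested. Trim25, a ubiquitin ligase of the RIG-I pathway, fell under both treatments (-1.58, SE 0.35, edgeR adjusted p = 0.00056, and -1.29, SE 0.36, edgeR adjusted p = 0.0075). Isg20, an exonuclease, fell after 12-HETE (-1.61, SE 0.50, edgeR adjusted p = 0.0128), while its value of -0.99 under ADAR1 p150 OE did not pass (edgeR adjusted p = 0.0961). Ifih1, the sensor MDA5, had 2 to 5 counts in every library. Eif2ak2, the kinase PKR, had 9 and 13 counts in vehicle libraries, 10 and 11 after 12-HETE, 4 and 6 in vector libraries, and 6 and 7 under ADAR1 p150 OE.

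Among 14 genes of interferon signalling and ISGF3, 7 were tested, and 3 fell after 12-HETE and 1 under ADAR1 p150 OE, with medians of -0.997 and -0.29. Stat2, a subunit of ISGF3, fell under both (-2.60, SE 0.48, edgeR adjusted p = 5.66e-05, and -2.41, SE 0.58, edgeR adjusted p = 0.0019). Its counts were 21 and 28 in vehicle libraries, 6 and 3 after 12-HETE, 9 and 18 in vector libraries, and 4 and 2 under ADAR1 p150 OE. Irf9, the DNA-binding subunit, was too low for the main test and is named here after its values were seen. It had 13 and 8 counts in vehicle libraries against 0 and 1, and 10 and 17 in vector libraries against 1 and 2.

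Irf7, the transcription factor whose transcript Oasl1 binds, had 31 and 41 counts in vehicle libraries, 11 and 5 after 12-HETE, 30 and 16 in vector libraries, and 15 and 24 under ADAR1 p150 OE. It fell after 12-HETE (-2.34, SE 0.41, edgeR adjusted p = 2.81e-05) and had -0.53 under ADAR1 p150 OE (edgeR adjusted p = 0.326), and here the difference passed (-1.81, SE 0.57, edgeR adjusted p = 0.0254). Irf7 was the only tested gene of this list that passed the test of the difference.

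Of 24 interferon-induced effectors outside the OAS family, 5 were tested, and 3 fell after 12-HETE and 2 under ADAR1 p150 OE, with medians of -1.18 and -0.81. Ifi27 fell under both (-4.24, SE 0.46, edgeR adjusted p = 4.89e-09, and -2.74, SE 0.39, edgeR adjusted p = 1.57e-06, on the log2 scale). Ifitm3, which restricts virus entry, fell under both (-1.95, SE 0.46, edgeR adjusted p = 0.0011, and -2.42, SE 0.49, edgeR adjusted p = 0.00027). Parp9 fell after 12-HETE by 1.18 (SE 0.20, edgeR adjusted p = 2.54e-05), while its -0.54 under ADAR1 p150 OE was below the 2-fold limit. With no count minimum, 12 and 7 of the 24 were called lower and none higher. In that fit 3.52% and 1.94% of all 24375 genes were called lower, and 459 and 591 genes were called higher. Isg15, a ubiquitin-like modifier, had 2 and 9 counts in vehicle libraries, 8 and 2 after 12-HETE, 7 and 7 in vector libraries, and 1 and 2 under ADAR1 p150 OE.

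**Figure D5:**
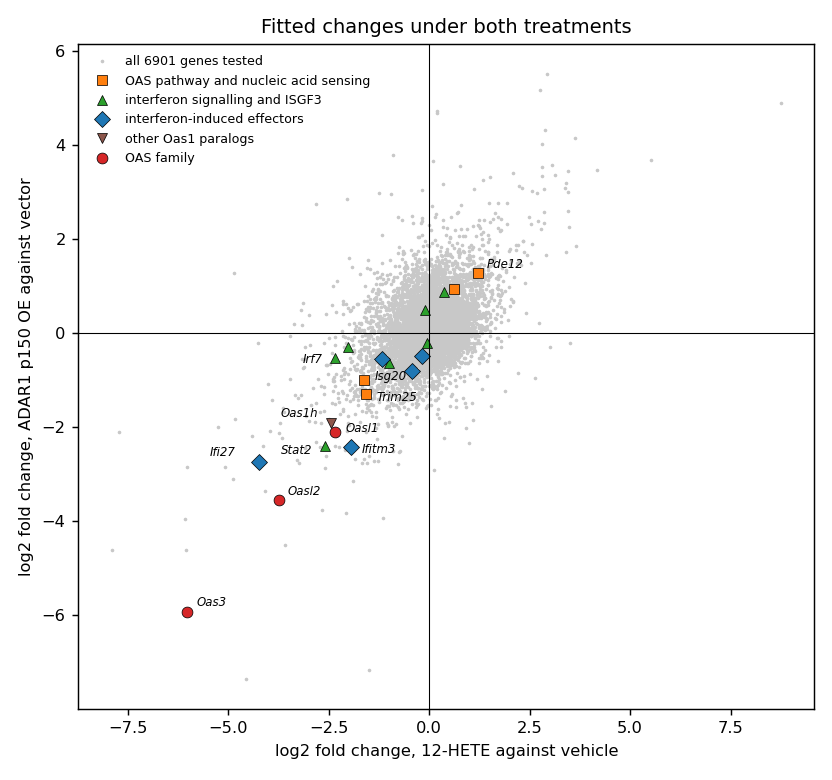
Log2 fold change of 12-HETE against vehicle (x axis) and of ADAR1 p150 OE against vector (y axis) for all 6901 genes tested (grey) and the tested genes of the lists (coloured). Oas3, Oasl2 and Oasl1 lie at the lower left, Irf7 lies left near 0 on the y axis, and Pde12 lies at the upper right.

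The summed levels of some marker lists of other cell types were lower after 12-HETE, that of the endothelial list through Cdh5 alone. The summed level of 8 immune markers was 22.4 to 24.9 normalized CPM in vehicle libraries and 13.1 to 14.8 after 12-HETE, against 22.9 to 25.7 in vector libraries and 22.0 to 27.3 under ADAR1 p150 OE. Cd68 held most of this sum, with 10 to 26 counts, while Cd3e and Adgre1 were at 0 and Ptprc at most 1. The sum of 5 endothelial markers was 6.43 to 8.30 in vehicle libraries and 0.742 to 2.07 after 12-HETE, against 5.31 to 7.62 in vector libraries and 1.36 to 9.53 under ADAR1 p150 OE, with Vwf and Tek at most 1 count. Most of it in the controls came from Cdh5, which had 9 and 7 counts in vehicle libraries, 0 after 12-HETE, 4 and 7 in vector libraries, and 1 and 2 under ADAR1 p150 OE, and which was called lower after 12-HETE with no count minimum (edgeR adjusted p = 5.73e-05). Pecam1 and Kdr did not fall with Cdh5. Pecam1 had 1 and 0 counts in vehicle libraries and 2 and 0 after 12-HETE, and Kdr had 0 and 1 against 1 and 1. The 9.53 of ADAR1 p150 OE replicate 2 came mostly from Pecam1 and Kdr, with 6 and 3 counts. The sum of 6 fibroblast markers was 25.7 to 26.5 in vehicle libraries and 28.2 to 30.4 after 12-HETE, and 8.85 to 27.1 in vector libraries and 22.7 to 40.9 under ADAR1 p150 OE, nearly all from Dcn, with Col1a2 and Lum at 0. The 8 epithelial markers summed to 244.0 to 308.8, 239.0 to 247.5, 185.8 to 220.2 and 175.1 to 246.9 in the same order. The part of these levels in the fall of the OAS genes was not tested.

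The genes most like the family were taken as the 5 with the highest Pearson r of log2 normalized CPM with the family sum over the 8 libraries, which share their depth and groups. They were Gm31284 (r = 0.997), Gm44851 (0.991), Ahnak2 (0.991), Gdf15 (0.989) and Gm34148 (0.987). Gm34148 had 32 and 41 counts in vehicle libraries, 1 and 0 after 12-HETE, 32 and 33 in vector libraries, and 0 and 3 under ADAR1 p150 OE, close to the counts of Oas3. Among the tested members themselves r was 0.983 for Oas3 and Oasl1, 0.972 for Oas3 and Oasl2 and 0.985 for Oasl1 and Oasl2.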

How the data were processed

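The authors deposited raw counts per gene for 8 RNA-seq libraries of EO771 cells. For the editing analysis of these cells, the study's methods name FastQC, removal of duplicate reads by prinseq and STAR alignment against GRCm38. For expression they refer back to a general process with STAR and counting per gene by featureCounts. Whether duplicates were removed before the deposited counts were made is therefore not clear. Removing duplicates would lower the counts of short or abundant transcripts. The labels and the methods name different extraction and library kits, and whether featureCounts used the strand is not given in the sources used here. No table column was without a sample. Totals were 1101767 to 1537037 counts.

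A single fit of the 8 libraries, with 1 coefficient for each group, covered the genes whose mean count reached 10 (edgeR 4.0.16 with limma 3.58.1, R 4.3.3, TMM factors, quasi-likelihood F test, Benjamini-Hochberg adjustment over all genes tested). A gene was called where its adjusted p was under 0.05 and its change at least 2-fold. SEs were the absolute log2 fold change over the root of the F statistic. Ratios of summed counts used TMM-scaled totals and exact conditional binomial intervals, with a floor of 3 counts over a group at 0. Scripts were tested on simulated data.

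Alternatives were DESeq2 1.42.0, RLE factors, other count minimums, a fit of 4 libraries, a replicate block, adjusted p alone, libraries left out in turn, removal of the gene with the most counts and thinning to the smallest total. Replicate numbers come from the sample titles. Members and lists were chosen with earlier results of these data known. Genes named are the 8 members, called list genes with at most the 4 of highest mean count per list, a fixed set (Ifih1, Eif2ak2, Irf7, Isg15, Adar), genes that overlap a member and the 5 most like the family. Some genes that this rule or the lists hold are not reported here, but they remain in the counts and medians over the lists. Positions and transcripts come from GENCODE M21 and promoters from RefSeq. Sequences were handled with Python 3.11.15 and Biopython 1.88 (global alignment of coding sequences, identity over aligned bases) and plots with matplotlib 3.10.9.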

Additional observations from a re-analysis of the deposited data

How the results depend on the processing

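The depth limited the family most: 5 of 8 members fell below the count minimum, and with at least 10 counts in every library no member was left to test. With no count minimum the number of members called lower with 12-HETE was 5 in place of 3. The other 54 of 55 recounts under the alternatives were within 1.5 times of the reported number, and Oas3, Oasl1 and Oasl2 stayed below 0 and past the threshold under both treatments in each alternative that tested them, with adjusted p of at most 0.0016. With 1 library left out, the log2 fold change of Oas3 was -8.25 without 12-HETE replicate 5 and -5.12 without replicate 4, and -8.12 without ADAR1 p150 OE replicate 1 and -5.12 without replicate 2. That of Oasl2 was -4.15 without ADAR1 p150 OE replicate 2 and -3.09 without replicate 1. Values near 0 changed sign: Oas3 of vector against vehicle was 0.012 with the replicate block and ranged from -0.35 to 0.20 with 1 library left out, and Oas1h was -0.0329 with the crossed replicate block. With 1 library left out, the difference between the effects ranged from -2.33 to 2.11 for Oas3 and -0.45 to 0.00898 for Oasl1. This range was -0.65 to 0.41 for Oasl2 and -5.89 to 0.42 for Oas1h. The -5.89 came without 12-HETE replicate 4, where the 12-HETE library left had 0 counts of Oas1h. The -8.25 and -8.12 of Oas3 also came where the treated library left had 0 counts of it. The cause of the other shifts was not tested.

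Libraries of the same number did not deviate together (correlation of deviations -0.078 for 12-HETE and vehicle and -0.11 for ADAR1 p150 OE and vector), so the numbers were not taken as pairs. With the replicate block 3 members were called lower in each treatment and 0 in the other comparisons. The crossed replicate block, chosen after seeing the data, gave the same numbers of members. The numbers over all genes moved more. For vector against vehicle, 1 gene was called higher and 2 lower, but 4 and 60 with the crossed replicate block, 3 and 0 with the replicate block, 0 and 0 with DESeq2, and at most 6 and 7 under the other alternatives that left no library out in turn. After 12-HETE, 422 genes were higher and 569 lower, against 206 and 384 with DESeq2, 459 and 857 with no count minimum, 202 and 279 with at least 10 counts in every library, and 1039 and 982 by adjusted p alone. Under ADAR1 p150 OE these were 560 and 324, against 250 and 191, 591 and 474, 297 and 132, and 1001 and 765. For the difference they were 151 and 424, against 78 and 176 with DESeq2 and 461 and 572 by adjusted p alone.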
